A study of Mus musculus with 12 samples.

Results

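The Wnt ligands, Frizzled receptors and modulators described here are 43 mouse genes taken by symbol from a list of names, out of 53465 genes counted in glial cells of the neonatal spinal cord. The list was matched by gene identifier, all 43 were found, and all 43 had enough reads to enter the tests, which ran on 29361 genes. The cells came from C57BL/6 mice of the genotype Aldh1L1-GFP/Olig2-tdTomato at postnatal day 7, and the genotype with both reporters is the same for every fraction. Tissue of the brachial and thoracic cord was dissociated with papain, and the cells were sorted on a FACS Aria into 3 fractions of 4 libraries each. The eGFP/tdTomato fraction is labelled with both reporters, the eGFP fraction is labelled with the GFP of the Aldh1L1-GFP reporter (Aldh1l1 is an astrocyte enzyme), and the tdTomato fraction with that of the Olig2-tdTomato reporter (Olig2 is a transcription factor of the oligodendrocyte lineage). The library titles call the libraries biological replicates, but how the gates were set and how many animals went into a library is not in the labels. A p-value here reflects the variation from library to library, and the part of it that comes from animals is not known. The libraries are numbered 1, 2, 3 and 5 in each fraction, and values of single libraries are given in that order throughout.

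Wnt ligands are secreted, lipid-modified proteins that bind Frizzled receptors. Together with the co-receptors Lrp5 and Lrp6 they stop a destruction complex of Axin and Apc from degrading beta-catenin, which then enters the nucleus and acts with TCF/LEF factors, while a separate branch works without beta-catenin on cell polarity and movement. R-spondins, through Lgr receptors, keep the ubiquitin ligases Znrf3 and Rnf43 from removing Frizzled receptors from the cell surface. In the developing central nervous system the pathway is known for dorsal patterning of the spinal cord, for the timing of oligodendrocyte differentiation and for the growth of blood vessels into neural tissue.

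Reads counted in genes were 12.6 to 36.5 per library in units of 1e6. Levels are CPM, that is counts scaled to a common library size with edgeR's TMM factors, and levels of different genes are compared only per kilobase of exon. Astrocyte markers (10 genes) summed to 43785 to 51329 CPM in the eGFP/tdTomato libraries, 33129 to 48549 CPM in the eGFP libraries and 231 to 320 CPM in the tdTomato libraries. Markers of myelinating oligodendrocytes (7 genes) summed to 1499 to 3157 CPM in the eGFP/tdTomato libraries, 381 to 1268 CPM in the eGFP libraries and 108893 to 161403 CPM in the tdTomato libraries. No marker of these lists was at 0 in all libraries of a fraction. The library eGFP replicate 1 stood apart, with 57.1% of its reads outside annotated genes against 21.2 to 42.5% in the other libraries. In these bulk libraries, fewer cells of a type and less RNA per cell cannot be told apart.

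Few Wnt members were called between the eGFP/tdTomato and eGFP fractions, which share the astrocyte markers. Most were called between each of these and the tdTomato fraction. Of the 43 members, 4 were higher in the eGFP/tdTomato fraction than in the eGFP fraction (9.30% of members, where 0.814% of all genes were called higher) and 1 was lower (2.33%, where 1.67% of all genes were called lower). Against the tdTomato fraction, 23 members were higher in the eGFP/tdTomato fraction (53.5%, with 16.8% of all genes) and 3 were lower (6.98%, with 12.4% of all genes). In the eGFP fraction against the tdTomato fraction, 25 members were higher (58.1%, with 20.4% of all genes) and 2 were lower (4.65%, with 14.9% of all genes). A gene was called at an adjusted p under 0.05 (edgeR quasi-likelihood test, Benjamini-Hochberg adjusted over all tested genes). The members were chosen with earlier results of these data known, so their shares beside those of all genes are a description and not a test. The share of members called lower was near the share of all genes for eGFP/tdTomato over eGFP and below it in the comparisons with tdTomato, which share the tdTomato libraries. The astrocyte and oligodendrocyte marker sums above differ along with those comparisons, and their part in the members' differences was not tested.

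The median log2 fold change of the members was 0.11 for eGFP/tdTomato over eGFP, beside −0.02 over all tested genes. It was 1.95 for eGFP/tdTomato over tdTomato, beside 0.70 over all tested genes, and 2.05 for eGFP over tdTomato, beside 0.79. The median over all genes depends on the processing. Among genes of at least 1 CPM in 4 libraries it was 0.12 for eGFP/tdTomato over tdTomato and 0.18 for eGFP over tdTomato, beside 1.78 and 2.11 for the 40 members left. With a covariate for reads outside genes it was 0.26 and 0.10, beside 1.92 and 1.81 for the members, and with upper-quartile factors 0.58 and 0.77, beside 1.87 and 2.03. No called member changed sign under any alternative tried. Libraries did not overlap for 5 members higher and 2 lower between the eGFP/tdTomato and eGFP fractions, where 3.75% of all tested genes were higher and 4.18% lower by that measure. Between the eGFP/tdTomato and tdTomato fractions it was 24 members higher and 3 lower, with 20.6% and 14.8% of all genes, and between the eGFP and tdTomato fractions 25 higher and 2 lower, with 19.6% and 14.3% of all genes. By mean level, 20 members were highest in the eGFP/tdTomato fraction, 16 in the eGFP fraction, with tdTomato highest for the other 7.

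**Figure D1:**
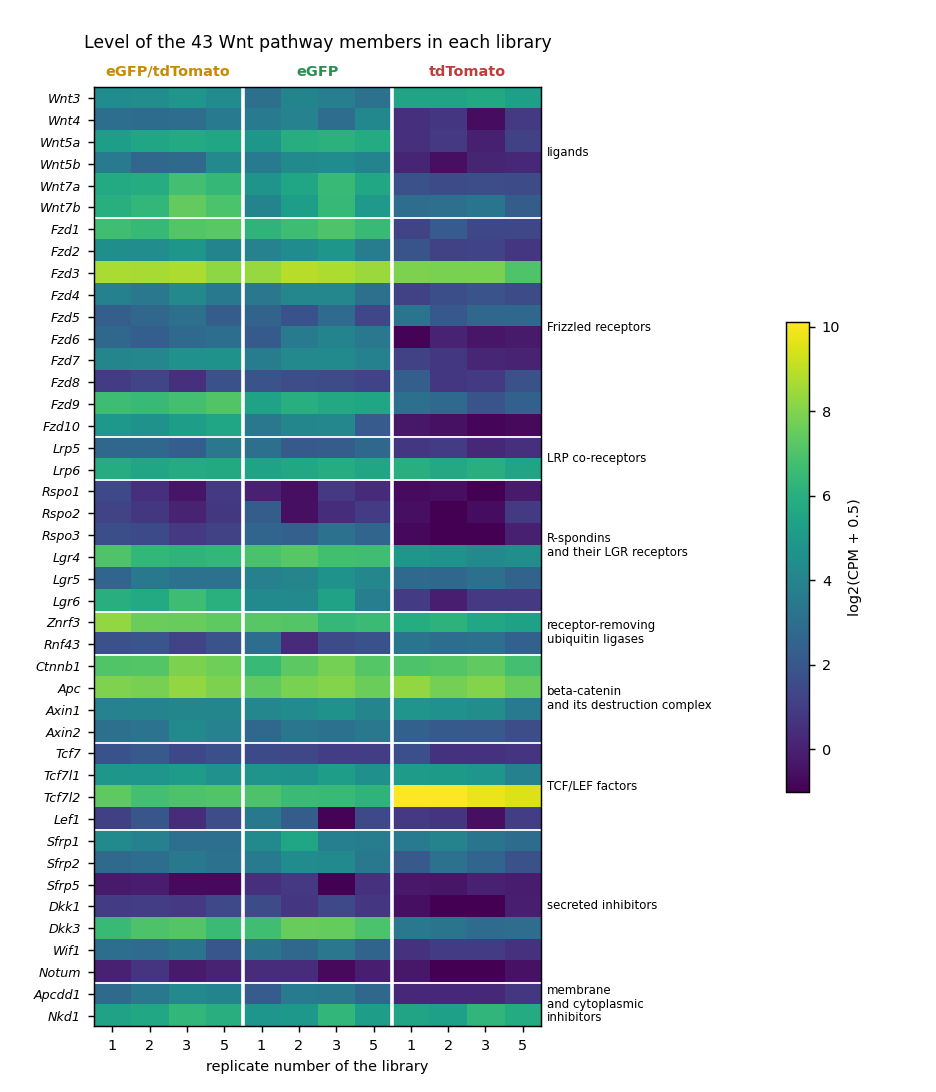
Level of each of the 43 members in each of the 12 libraries, as log2(CPM + 0.5), with members in rows grouped by role and libraries in columns grouped by fraction. Most ligands and Frizzled receptors are darker in the 4 tdTomato libraries on the right, while Wnt3 and Tcf7l2 are brightest there.

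**Figure D2:**
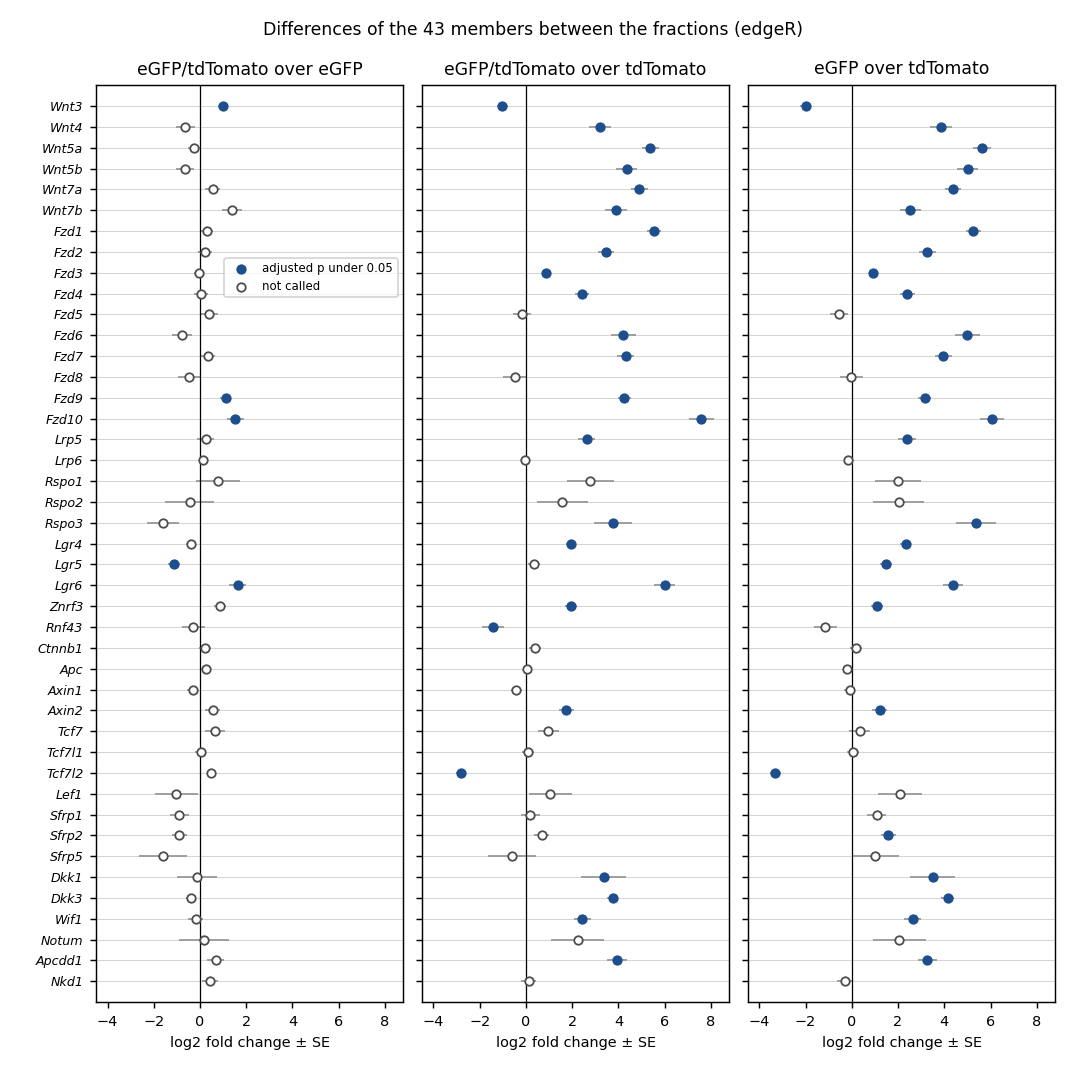
Log2 fold change of each member with its standard error in the 3 comparisons, with filled points for an adjusted p under 0.05 and open points for members not called. Of the 43 members, 5 are filled for eGFP/tdTomato over eGFP, 26 for eGFP/tdTomato over tdTomato and 27 for eGFP over tdTomato.

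Between the eGFP/tdTomato and eGFP fractions, the ligand gene Wnt3, the receptor genes Fzd9 and Fzd10 and the R-spondin receptor gene Lgr6 were higher, and the R-spondin receptor gene Lgr5 was lower. Wnt3 encodes a ligand of the beta-catenin branch and lies on chromosome 11 (chr11:103774150-103817957, GRCm38). It measured 20.8, 21.5, 26.8 and 19.96 CPM in the eGFP/tdTomato libraries, 7.97, 15.7, 12.8 and 8.53 CPM in the eGFP libraries and 44.6, 44.3, 52.7 and 38.3 CPM in the tdTomato libraries. Each fraction was separate from the next, with the eGFP/tdTomato libraries in the middle, and the log2 fold change over eGFP was 0.98 ± 0.22 (SE, adjusted p = 0.0275).

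Fzd9, whose human counterpart lies in the region deleted in Williams syndrome, measured 100.2, 90.5, 109 and 135 CPM in the eGFP/tdTomato libraries, 41.1, 64.0, 51.3 and 45.1 CPM in the eGFP libraries and 8.196, 6.44, 3.20 and 4.94 CPM in the tdTomato libraries. The log2 fold change for eGFP/tdTomato over eGFP was 1.11 ± 0.25 (adjusted p = 0.0243), and the lowest eGFP/tdTomato library was above the highest eGFP library. Fzd10, a Frizzled gene known from the dorsal neural tube of the embryo, measured 29.8, 25.2, 36.6 and 46.0 CPM in the eGFP/tdTomato libraries, 10.3, 16.5, 17.1 and 3.999 CPM in the eGFP libraries and 0.312, 0.211, 0.0744 and 0.111 CPM in the tdTomato libraries. Its log2 fold change over eGFP was 1.53 ± 0.38 (adjusted p = 0.0449), the weakest of the 5 calls by adjusted p, with eGFP replicate 5 lowest in its fraction.

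Lgr6, one of the Lgr receptors that bind R-spondins, measured 62.5, 55.3, 100.02 and 65.0 CPM in the eGFP/tdTomato libraries, 18.6, 18.4, 41.7 and 12.8 CPM in the eGFP libraries and 1.43, 0.451, 1.30 and 1.29 CPM in the tdTomato libraries. The eGFP/tdTomato libraries were all above the eGFP libraries, with replicate 3 highest in both fractions, and the log2 fold change was 1.63 ± 0.36 (adjusted p = 0.0219). Lgr5, its relative known as a marker of intestinal stem cells, went the other way and measured 5.66, 10.6, 8.44 and 8.26 CPM in the eGFP/tdTomato libraries, 13.6, 15.9, 25.7 and 17.4 CPM in the eGFP libraries and 6.46, 6.05, 8.11 and 5.28 CPM in the tdTomato libraries. The eGFP libraries were all above those of both other fractions, and the log2 fold change for eGFP/tdTomato over eGFP was −1.14 ± 0.26 (adjusted p = 0.0258).

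These 5 calls were close to the threshold. The adjusted p, given in parentheses, exceeded 0.05 for Wnt3 without eGFP/tdTomato replicate 1 (0.0606), eGFP/tdTomato replicate 2 (0.0627), eGFP/tdTomato replicate 3 (0.199), eGFP/tdTomato replicate 5 (0.0602), eGFP replicate 1 (0.0787), eGFP replicate 5 (0.205), or without tdTomato replicate 1 (0.0501). For Fzd9 the call was lost without eGFP/tdTomato replicate 1 (0.0525), eGFP/tdTomato replicate 3 (0.133), eGFP/tdTomato replicate 5 (0.107), eGFP replicate 1 (0.0980), or without eGFP replicate 5 (0.188). The Fzd10 call was lost without eGFP/tdTomato replicate 1 (0.0791), eGFP/tdTomato replicate 2 (0.0538), eGFP/tdTomato replicate 3 (0.139), eGFP/tdTomato replicate 5 (0.173), eGFP replicate 1 (0.123), eGFP replicate 2 (0.0579), eGFP replicate 5 (0.116), tdTomato replicate 1 (0.0528), tdTomato replicate 2 (0.0609), or without tdTomato replicate 5 (0.0501). Lgr6 was no longer called without eGFP/tdTomato replicate 3 (0.0798), eGFP/tdTomato replicate 5 (0.0529), eGFP replicate 1 (0.0594), eGFP replicate 2 (0.0921), or without eGFP replicate 5 (0.104), and Lgr5 without eGFP/tdTomato replicate 1 (0.104), eGFP/tdTomato replicate 3 (0.0512), eGFP/tdTomato replicate 5 (0.0952), eGFP replicate 2 (0.0551), eGFP replicate 3 (0.0729), or without eGFP replicate 5 (0.0505). The log2 fold changes with 1 library left out kept their sign and ran from 0.79 to 1.20 for Wnt3, 0.96 to 1.26 for Fzd9, 1.20 to 1.77 for Fzd10, 1.38 to 2.11 for Lgr6 and −1.32 to −0.91 for Lgr5. With all libraries of 1 replicate number left out, Wnt3, Fzd9 and Lgr5 were not called for any of the 4 numbers, and Fzd10 and Lgr6 were not called without number 1, 2 or 5. With only these fractions in the fit, the calls of Wnt3 (0.0913) and Fzd10 (0.0799) were lost. Without eGFP replicate 1, the library with most reads outside genes, 0 members were called higher and 1 lower.

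**Figure D3:**
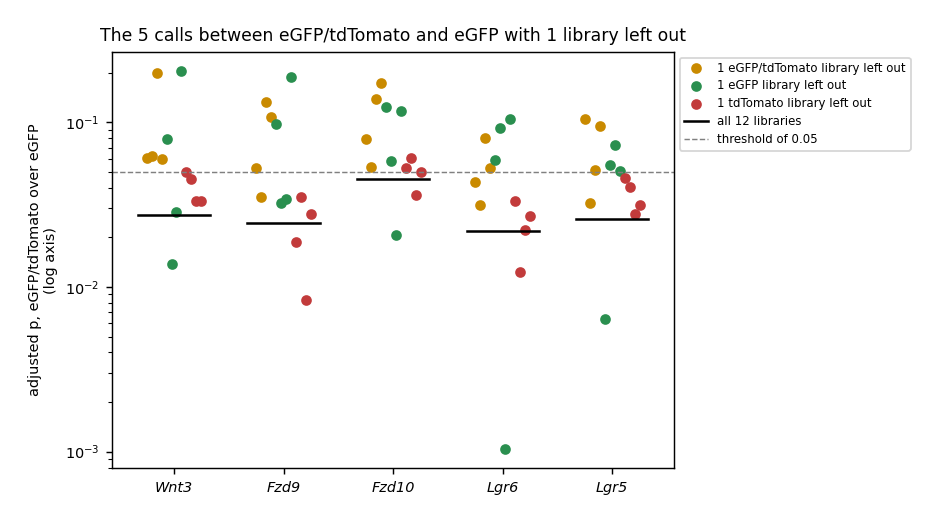
Adjusted p on a log axis of the 5 members called between the eGFP/tdTomato and eGFP fractions, with each of the 12 libraries left out in turn (points, coloured by the fraction of the library) and with all libraries (black bars). The dashed line marks 0.05, and leaving out 1 library carries Fzd10 past it 10 times, Wnt3 7 times, Lgr5 6 times, and Fzd9 and Lgr6 5 times each.

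Of the 38 members not called between these fractions, log2 fold changes ran from −1.61 (Sfrp5) to 1.37 (Wnt7b), and the lowest adjusted p was 0.115 (Znrf3). Znrf3 and Rspo3 had libraries that did not overlap between the fractions but were not called. Markers of other cells were higher in the eGFP libraries: ependymal markers (8 genes) summed to 17.9 to 26.9 CPM in the eGFP/tdTomato libraries and 158 to 322 CPM in the eGFP libraries. Microglial and macrophage markers (8 genes) summed to 25.4 to 33.7 CPM in the eGFP/tdTomato libraries and 74.5 to 923 CPM in the eGFP libraries. Mural and fibroblast markers (8 genes) summed to 357 to 569 CPM in the eGFP/tdTomato libraries and 787 to 2094 CPM in the eGFP libraries. The sum of oligodendrocyte progenitor markers (6 genes) was higher in eGFP/tdTomato, at 2305 to 3483 CPM against 863 to 2088 CPM in eGFP. In the tdTomato libraries it was 2082 to 2858 CPM. Most of the eGFP/tdTomato sum was Ptprz1, which averaged 1965 CPM there and 1185 CPM in eGFP. Of the 6 genes, only Pdgfra was lower in eGFP/tdTomato than in eGFP (means of 7.80 and 13.2 CPM). The part of these marker sums in the calls between the fractions, Lgr5 among them, was not tested.

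Promoter windows from RefSeq (GRCm38.p6), running from 250 bases before to 50 bases after a start set by that source, were matched for 25 of the 43 members, with 34 windows. Such a start can lie inside the gene as GENCODE M21, used here for gene positions, places it. The Fzd10 window lies wholly inside its GENCODE gene (chr5:128600844-128604093). The Fzd9 and Dkk1 windows reach more than 50 bases into theirs. TCF/LEF factors bind short sequences with a CTTTG core, and the windows were searched on both strands for 4 sets of letters: CTTTGAA, or CTTTGAT, or else CTTTGTA, or the letters CTTTGTT, of which no more than 1 can begin at a given base. At least 1 of them was found in 6 of 34 member windows (17.6%) and in 16.9% of all 32851 windows. Member windows held a median of 24 CpG dinucleotides and 67% G and C, beside 7 and 52.7% over all windows. The windows shown are those of the 4 genes higher in the eGFP/tdTomato fraction than in the eGFP fraction, and that of Dkk1, the member with matches at 2 positions, each in the direction of the gene and with matching letters in capitals.
Wnt3, chr11:103773925-103774224, plus strand: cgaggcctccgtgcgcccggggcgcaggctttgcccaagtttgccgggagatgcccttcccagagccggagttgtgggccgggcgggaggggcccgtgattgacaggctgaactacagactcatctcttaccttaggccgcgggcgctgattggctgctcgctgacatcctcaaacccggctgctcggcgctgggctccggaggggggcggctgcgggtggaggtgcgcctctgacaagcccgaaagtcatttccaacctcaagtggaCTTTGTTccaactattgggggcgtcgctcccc
Fzd9, chr5:135250998-135251297, minus strand: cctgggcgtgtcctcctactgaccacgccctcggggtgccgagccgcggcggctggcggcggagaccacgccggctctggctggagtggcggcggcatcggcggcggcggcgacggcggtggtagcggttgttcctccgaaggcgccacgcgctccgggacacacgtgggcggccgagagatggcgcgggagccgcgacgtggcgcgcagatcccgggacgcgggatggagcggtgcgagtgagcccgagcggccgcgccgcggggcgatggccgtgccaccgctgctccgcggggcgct
Fzd10, chr5:128600856-128601155, plus strand: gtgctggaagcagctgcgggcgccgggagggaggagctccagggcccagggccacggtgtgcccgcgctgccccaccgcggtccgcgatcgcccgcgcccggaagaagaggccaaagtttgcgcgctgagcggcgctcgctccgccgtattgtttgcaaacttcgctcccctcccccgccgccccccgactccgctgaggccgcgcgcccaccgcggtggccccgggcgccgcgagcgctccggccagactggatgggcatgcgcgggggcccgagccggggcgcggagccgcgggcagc
Lgr6, chr1:135105227-135105526, minus strand: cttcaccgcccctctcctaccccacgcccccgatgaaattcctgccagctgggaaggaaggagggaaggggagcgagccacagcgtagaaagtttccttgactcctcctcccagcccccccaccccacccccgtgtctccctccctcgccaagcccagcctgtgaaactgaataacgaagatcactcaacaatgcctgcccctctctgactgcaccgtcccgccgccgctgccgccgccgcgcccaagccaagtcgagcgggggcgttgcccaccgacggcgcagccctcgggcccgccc
Dkk1, chr19:30549447-30549746, minus strand: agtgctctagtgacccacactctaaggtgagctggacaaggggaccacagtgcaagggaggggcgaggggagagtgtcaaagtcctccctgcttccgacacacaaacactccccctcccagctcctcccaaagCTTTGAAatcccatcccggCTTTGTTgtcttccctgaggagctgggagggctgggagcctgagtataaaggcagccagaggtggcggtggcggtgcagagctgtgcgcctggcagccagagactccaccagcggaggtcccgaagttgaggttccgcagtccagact
Wnt3 holds CTTTGTT from base 269 of its window, counted from 1 at the 5′ end, and Dkk1 holds CTTTGAA from base 134 and CTTTGTT from base 153. The windows of Fzd9, Fzd10 and Lgr6 hold none of these letters on either strand, which says nothing of the factors' binding.

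Among the ligands, all 6 were called against the tdTomato fraction in both comparisons, 5 of them higher and Wnt3 lower. Their median log2 fold change was 4.13 for eGFP/tdTomato over tdTomato, beside 0.70 over all genes, and 4.10 for eGFP over tdTomato, beside 0.79. Wnt7a, a ligand of neural tissue that acts on blood vessels, measured 55.03, 59.0, 110.1 and 84.96 CPM in the eGFP/tdTomato libraries, 26.3, 46.7, 91.1 and 48.1 CPM in the eGFP libraries and 2.90, 2.38, 2.57 and 2.44 CPM in the tdTomato libraries. The eGFP/tdTomato and eGFP libraries overlapped, and both stood far above the tdTomato libraries, with log2 fold changes of 4.91 ± 0.37 and 4.37 ± 0.36 over tdTomato (adjusted p = 5.35e-08 and 1.39e-07).

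Wnt7b, a close relative of Wnt7a, measured 63.9, 80.3, 171 and 124 CPM in the eGFP/tdTomato libraries, 15.4, 37.4, 85.4 and 30.6 CPM in the eGFP libraries and 7.22, 8.15, 9.41 and 4.35 CPM in the tdTomato libraries. It was higher than in tdTomato in the eGFP/tdTomato fraction (log2 fold change 3.91 ± 0.48, adjusted p = 1.08e-05) and in the eGFP fraction (2.53 ± 0.45, adjusted p = 0.00039). Replicate 3 of eGFP lay within the eGFP/tdTomato range, and the log2 fold change of 1.37 ± 0.43 over eGFP was not called (adjusted p = 0.146). Alternatives that called it included DESeq2 (adjusted p = 0.0178), limma-voom (0.0461) and the covariate for reads outside genes (0.00691). Leaving out eGFP replicate 3 (0.00680) or all libraries numbered 3 (0.0175) also brought the call. Replicate 3 also carried part of the difference from tdTomato, which was 3.32 on the log2 scale without eGFP/tdTomato replicate 3 and 1.92 for eGFP without eGFP replicate 3.

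Wnt5a, known for signalling that does not pass through beta-catenin, measured 35.8, 47.3, 55.1 and 45.7 CPM in the eGFP/tdTomato libraries, 28.8, 60.9, 70.8 and 56.7 CPM in the eGFP libraries and 0.891, 1.29, 0.483 and 1.70 CPM in the tdTomato libraries. Its log2 fold changes over tdTomato were 5.38 ± 0.37 for eGFP/tdTomato and 5.62 ± 0.38 for eGFP (adjusted p = 2.33e-08 and 1.51e-08), the largest among the ligands in each. Wnt5b, its closest relative, measured 11.56, 6.10, 6.63 and 18.4 CPM in the eGFP/tdTomato libraries, 11.2, 19.6, 20.4 and 15.8 CPM in the eGFP libraries and 0.624, 0.181, 0.595 and 0.701 CPM in the tdTomato libraries. Wnt4, known from kidney and reproductive tract development, measured 7.64, 7.02, 7.31 and 11.1 CPM in the eGFP/tdTomato libraries, 11.9, 14.6, 7.30 and 17.8 CPM in the eGFP libraries and 0.935, 1.17, 0.149 and 1.33 CPM in the tdTomato libraries. Libraries of the eGFP/tdTomato and eGFP fractions overlapped for Wnt5a, Wnt5b and Wnt4, while every tdTomato library lay below them. Log2 fold changes over tdTomato were 4.36 ± 0.46 and 5.01 ± 0.47 for Wnt5b and 3.19 ± 0.47 and 3.83 ± 0.48 for Wnt4, for eGFP/tdTomato and eGFP in that order (largest adjusted p = 6.44e-05).

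Wnt3 was lower than in tdTomato in both other fractions, with log2 fold changes of −1.01 ± 0.22 for eGFP/tdTomato (adjusted p = 0.00226) and −1.99 ± 0.23 for eGFP (adjusted p = 4.64e-06). Per kilobase of exon, Wnt3 made up 11.5% ± 2.64 of the summed ligand level in the eGFP/tdTomato libraries, 8.57% ± 2.58 in the eGFP libraries and 83.6% ± 0.848 in the tdTomato libraries (SD, n = 4 each). Wnt7a held 36.7% ± 1.36 in the eGFP/tdTomato libraries, 35.9% ± 4.33 in the eGFP libraries and 4.68% ± 0.606 in the tdTomato libraries. Wnt7b held 32.9% ± 4.87 in the eGFP/tdTomato libraries, 17.4% ± 5.51 in the eGFP libraries and 8.38% ± 1.70 in the tdTomato libraries. The 6 ligands summed to 65.8 ± 19.5 CPM per kilobase in the eGFP/tdTomato libraries, 45.3 ± 18.1 in the eGFP libraries and 17.5 ± 2.16 in the tdTomato libraries. Wnt3 was thus the most abundant of these ligand RNAs per length in the tdTomato libraries, and Wnt7a and Wnt7b were the most abundant in the eGFP/tdTomato libraries. Neuronal markers (8 genes) summed to 34.6 to 59.2 CPM in the eGFP/tdTomato libraries, 59.3 to 75.2 CPM in the eGFP libraries and 431 to 647 CPM in the tdTomato libraries. Most of the tdTomato sum was Elavl3, which averaged 8.34 CPM in the eGFP/tdTomato libraries, 3.25 CPM in the eGFP libraries and 479 CPM in the tdTomato libraries. The other neuronal markers did not all go that way. By mean level, Tubb3 and Snap25 were also highest in tdTomato, Syt1 and Gad1 lay between the other fractions, and Rbfox3, Slc17a6 and Stmn2 were lowest in tdTomato. Stmn2 averaged 7.80, 13.4 and 1.51 CPM in the eGFP/tdTomato, eGFP and tdTomato libraries. The part of these markers in the Wnt3 difference was not tested.

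**Figure D4:**
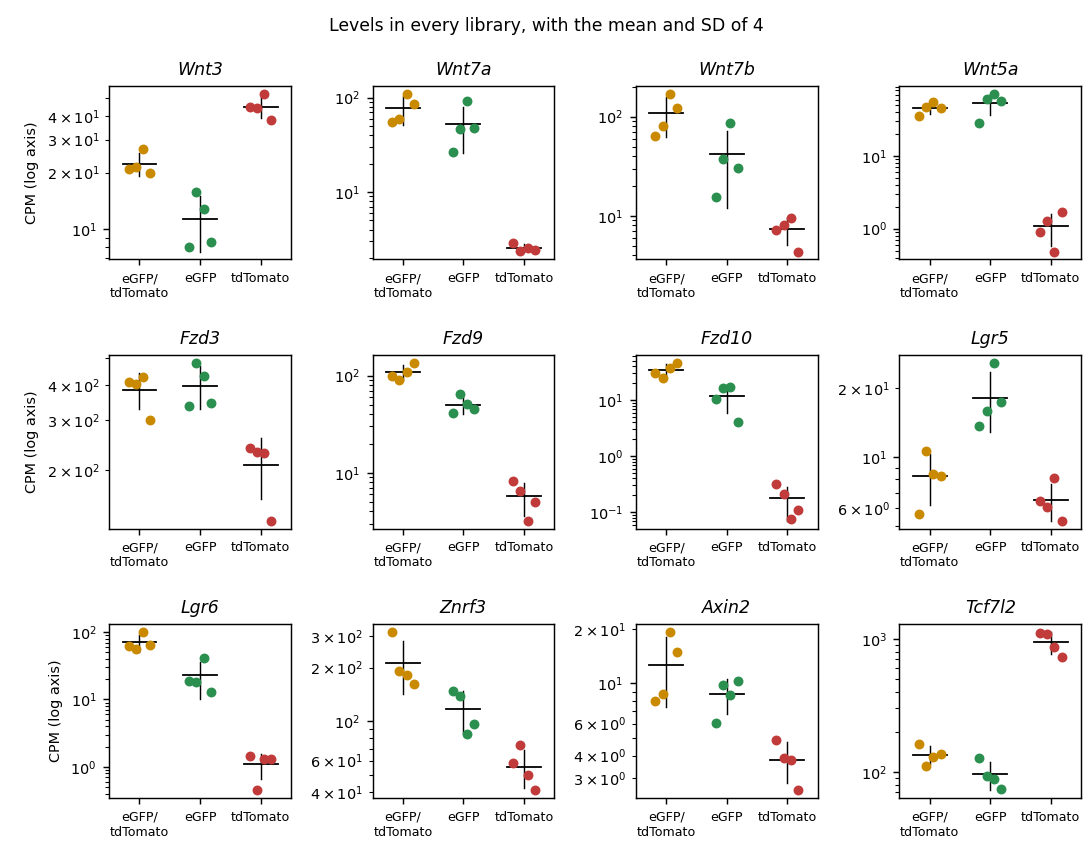
Level in CPM on a log axis of 12 members in every library, with points for the 4 libraries of each fraction, a horizontal bar for their mean and a vertical bar for the SD. Wnt3 and Tcf7l2 are highest in the tdTomato libraries, Lgr5 in the eGFP libraries, and Fzd9, Fzd10 and Lgr6 in the eGFP/tdTomato libraries.

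Of the 10 Frizzled receptors, 8 were higher in the eGFP/tdTomato fraction than in tdTomato, and 8 were higher in the eGFP fraction than in tdTomato, with none lower. Fzd5 and Fzd8, which are closely related to each other, were the 2 not called in either. The median log2 fold change of the receptors was 3.85 for eGFP/tdTomato over tdTomato and 3.21 for eGFP over tdTomato. Fzd10 had the largest, 7.59 ± 0.54 and 6.06 ± 0.52 for eGFP/tdTomato and eGFP (adjusted p = 2.83e-08 and 2.15e-07). All 4 tdTomato libraries together held 19 reads of Fzd10, against 3723 in the eGFP/tdTomato libraries and 1101 in the eGFP libraries.

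Fzd1, which forms a subfamily with Fzd2 and Fzd7, measured 102, 86.7, 142 and 153 CPM in the eGFP/tdTomato libraries, 74.5, 99.5, 131 and 90.4 CPM in the eGFP libraries and 1.92, 4.09, 2.16 and 2.10 CPM in the tdTomato libraries. Fzd2 measured 22.4, 21.6, 29.1 and 15.8 CPM in the eGFP/tdTomato libraries, 14.8, 20.9, 29.2 and 12.03 CPM in the eGFP libraries and 3.21, 1.78, 1.86 and 1.18 CPM in the tdTomato libraries. Fzd7 measured 16.2, 16.9, 23.7 and 25.3 CPM in the eGFP/tdTomato libraries, 12.4, 18.3, 19.6 and 14.1 CPM in the eGFP libraries and 1.74, 1.23, 0.632 and 0.553 CPM in the tdTomato libraries. All 3 had overlapping eGFP/tdTomato and eGFP libraries and much lower tdTomato libraries. Log2 fold changes for eGFP/tdTomato over tdTomato were 5.54 ± 0.32 for Fzd1, 3.48 ± 0.35 for Fzd2 and 4.31 ± 0.35 for Fzd7, and for eGFP over tdTomato 5.25 ± 0.31, 3.27 ± 0.35 and 3.96 ± 0.35 (largest adjusted p = 2.31e-06).

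Fzd9 was higher than in tdTomato by 4.26 ± 0.28 on the log2 scale in the eGFP/tdTomato fraction and by 3.15 ± 0.27 in the eGFP fraction (adjusted p = 1.45e-08 and 2.05e-07). Fzd4, the receptor for norrin in retinal vessels, measured 14.0, 10.5, 18.5 and 10.6 CPM in the eGFP/tdTomato libraries, 10.2, 17.04, 17.1 and 8.04 CPM in the eGFP libraries and 1.74, 2.68, 3.12 and 2.36 CPM in the tdTomato libraries. Fzd6, known from hair patterning in mouse skin, measured 6.03, 4.47, 6.36 and 7.52 CPM in the eGFP/tdTomato libraries, 3.90, 11.64, 15.7 and 10.3 CPM in the eGFP libraries and 0.0445, 0.542, 0.297 and 0.369 CPM in the tdTomato libraries. For both genes the tdTomato libraries lay below all others, and log2 fold changes over tdTomato were 2.43 ± 0.31 and 2.40 ± 0.31 for Fzd4 and 4.22 ± 0.53 and 4.99 ± 0.54 for Fzd6, for eGFP/tdTomato and eGFP in that order (largest adjusted p = 1.82e-05).

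Fzd3, a receptor of planar polarity and axon guidance, was the Frizzled gene with the highest level per kilobase in the tdTomato libraries and measured 411, 405, 425 and 301 CPM in the eGFP/tdTomato libraries, 338, 479, 431 and 344 CPM in the eGFP libraries and 240.0, 231, 230.3 and 132 CPM in the tdTomato libraries. Replicate 5 was lowest in the eGFP/tdTomato and tdTomato fractions. The tdTomato libraries lay below all others, and the log2 fold changes over tdTomato were the smallest of the called Frizzled genes, 0.89 ± 0.21 for eGFP/tdTomato (adjusted p = 0.00445) and 0.93 ± 0.21 for eGFP (adjusted p = 0.0027). Both lie near the median of all genes in their comparison. The first was lost without eGFP/tdTomato replicate 3 (0.130), or eGFP replicate 5 (0.0534), with adjusted p in parentheses, and both were lost without all libraries numbered 3 (0.198 for eGFP/tdTomato and 0.103 for eGFP).

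Fzd5 averaged 5.66 ± 1.65 CPM in the eGFP/tdTomato fraction, 4.29 ± 2.19 CPM in the eGFP fraction and 6.34 ± 2.41 CPM in the tdTomato fraction. Fzd8 averaged 1.81 ± 0.841 CPM in the eGFP/tdTomato fraction, 2.49 ± 0.487 CPM in the eGFP fraction and 2.53 ± 1.58 CPM in the tdTomato fraction (SD, n = 4 each). Their libraries overlapped between all fractions, Fzd5 was called lower in eGFP than in tdTomato without the libraries numbered 3 (adjusted p = 0.0303), and the antisense gene Gm38058 covers 17.8% of the Fzd5 exons. As shares of the summed Frizzled level per kilobase, Fzd3 held 23.3% ± 5.27 in the eGFP/tdTomato libraries, 33.2% ± 2.13 in the eGFP libraries and 73.7% ± 5.84 in the tdTomato libraries. Fzd9 held 35.9% ± 3.01 in the eGFP/tdTomato libraries, 23.5% ± 2.44 in the eGFP libraries and 11.4% ± 3.57 in the tdTomato libraries. Fzd1 held 21.6% ± 3.02 in the eGFP/tdTomato libraries, 24.99% ± 2.93 in the eGFP libraries and 2.85% ± 1.05 in the tdTomato libraries. The sum itself was 132 ± 16.7 CPM per kilobase in the eGFP/tdTomato libraries, 94.2 ± 19.3 in the eGFP libraries and 21.97 ± 4.83 in the tdTomato libraries. Fzd3 thus held most of a small total in the tdTomato libraries, while Fzd9, Fzd3 and Fzd1 shared most of a larger one in the other libraries.

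**Figure D5:**
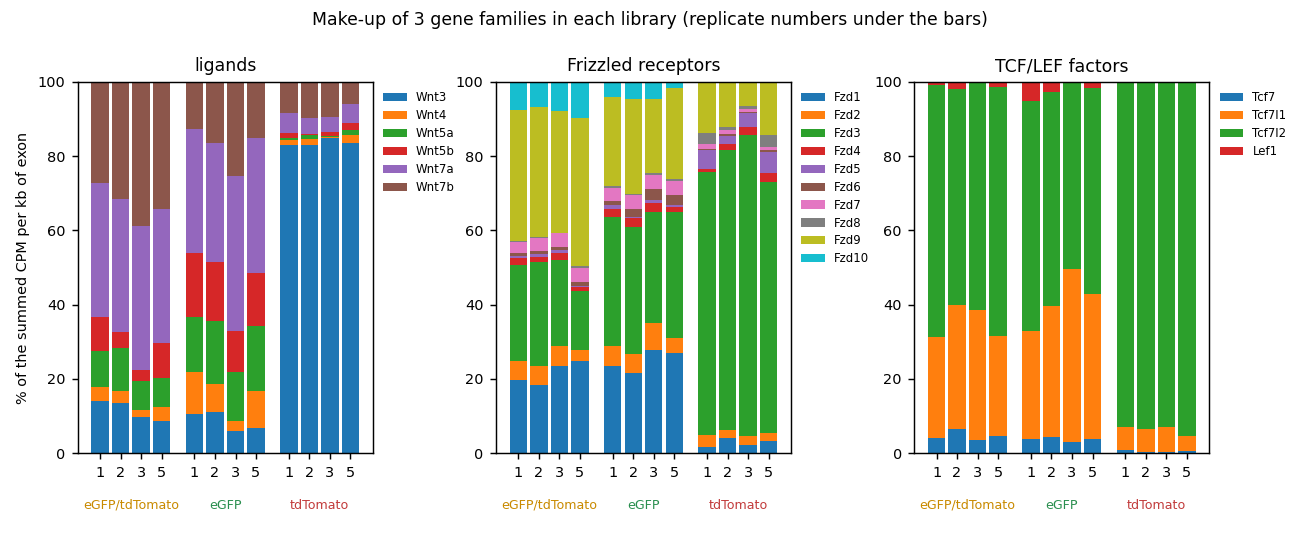
Make-up of the ligands, the Frizzled receptors and the TCF/LEF factors in each library, as the share in percent of each gene in the family's summed CPM per kilobase of exon, with libraries grouped by fraction. The tdTomato libraries are filled mostly by Wnt3 (83.6%), Fzd3 (73.7%) and Tcf7l2 (93.6%), and the other libraries by several genes each.

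The co-receptors Lrp5 and Lrp6 differed in their pattern. Lrp6 had the higher level per kilobase in every fraction and measured 57.9, 46.1, 56.4 and 53.3 CPM in the eGFP/tdTomato libraries, 42.9, 49.5, 59.0 and 46.5 CPM in the eGFP libraries and 64.1, 51.3, 61.6 and 44.2 CPM in the tdTomato libraries. All 3 ranges overlapped and it was called in no comparison. Lrp5 measured 5.80, 6.26, 4.44 and 9.9995 CPM in the eGFP/tdTomato libraries, 8.19, 3.88, 4.29 and 6.04 CPM in the eGFP libraries and 1.25, 1.44, 0.669 and 0.922 CPM in the tdTomato libraries. The tdTomato libraries lay below all others, with log2 fold changes of 2.62 ± 0.38 for eGFP/tdTomato over tdTomato and 2.38 ± 0.38 for eGFP over tdTomato (adjusted p = 6.24e-05 and 0.000136).

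Of the R-spondins and their Lgr receptors (6 genes), 3 were higher than in tdTomato in the eGFP/tdTomato fraction, and 4 were in the eGFP fraction. Lgr4, the receptor with the highest level per kilobase among them, measured 130.4, 81.3, 74.5 and 81.8 CPM in the eGFP/tdTomato libraries, 119, 149, 106 and 104 CPM in the eGFP libraries and 28.6, 25.9, 18.8 and 22.2 CPM in the tdTomato libraries. It was higher than in tdTomato in the eGFP/tdTomato fraction (log2 fold change 1.95 ± 0.22, adjusted p = 3.97e-06) and in the eGFP fraction (2.32 ± 0.22, adjusted p = 6.11e-07). Lgr6 was higher than in tdTomato by 6.00 ± 0.45 and 4.37 ± 0.42 on the log2 scale in these fractions (adjusted p = 4.87e-08 and 7.32e-07). Lgr5 was higher in eGFP than in tdTomato (1.49 ± 0.26, adjusted p = 0.0003), while eGFP/tdTomato over tdTomato gave 0.35 ± 0.26 and was not called (adjusted p = 0.316). By mean level, Lgr4 and Lgr5 were highest in the eGFP fraction and Lgr6 in the eGFP/tdTomato fraction.

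Rspo3 encodes an R-spondin and measured 2.66, 2.31, 1.28 and 1.70 CPM in the eGFP/tdTomato libraries, 5.57, 4.80, 8.28 and 5.62 CPM in the eGFP libraries and 0.0891, 0, 0 and 0.480 CPM in the tdTomato libraries. Every eGFP library was above every eGFP/tdTomato library, and the tdTomato libraries held 15 reads in all, 13 of them in replicate 5. Log2 fold changes over tdTomato were 3.78 ± 0.83 for eGFP/tdTomato (adjusted p = 0.0023) and 5.39 ± 0.86 for eGFP (adjusted p = 0.000142). Without tdTomato replicate 5 they were 6.05 and 7.64, resting on the 2 tdTomato reads left, so their size depends on that library. Between eGFP/tdTomato and eGFP the log2 fold change was −1.61 ± 0.70 and was not called (adjusted p = 0.428), but it was called with limma-voom (0.0191) and with only those fractions in the fit (0.0200).

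Rspo1 averaged 1.2003 ± 0.834 CPM in the eGFP/tdTomato fraction, 0.690 ± 0.479 CPM in the eGFP fraction and 0.171 ± 0.153 CPM in the tdTomato fraction. Rspo2 averaged 1.24 ± 0.549 CPM in the eGFP/tdTomato fraction, 1.70 ± 1.83 CPM in the eGFP fraction and 0.414 ± 0.615 CPM in the tdTomato fraction (SD, n = 4 each). Both were low, and neither was called in the edgeR fit of all libraries. As a yardstick for low levels, the 95th percentile of CPM per kilobase over 1092 olfactory receptor genes was taken in each library. Rspo2 exceeded it in 0 of 12 libraries and Rspo1 in 3. Of the called members, Lrp5 and Apcdd1 exceeded it in 6 libraries each, with 1 of those 6 from the tdTomato fraction. Rnf43 did so in 6, of which 4 were tdTomato. The yardstick was 0.175 to 0.695 CPM per kilobase in the eGFP/tdTomato libraries and 0.337 to 1.37 in the eGFP libraries. In the tdTomato libraries it was 0.0393 to 0.338, and the part of this background in the members' differences was not tested. DESeq2 called Rspo1 higher in eGFP/tdTomato than in tdTomato (adjusted p = 0.0157). Leaving out tdTomato replicate 5 brought calls against tdTomato for Rspo2 in the eGFP/tdTomato fraction (adjusted p = 0.0327) and in the eGFP fraction (0.0175) and for Rspo1 in the eGFP/tdTomato fraction (0.0355).

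The ubiquitin ligase genes Znrf3 and Rnf43 were called in opposite directions between the eGFP/tdTomato and tdTomato fractions. Znrf3 measured 317, 191, 182 and 162 CPM in the eGFP/tdTomato libraries, 148, 139, 84.98 and 95.8 CPM in the eGFP libraries and 58.4, 73.0, 49.8 and 41.0 CPM in the tdTomato libraries. Its libraries fell into 3 ranges that did not overlap, highest in eGFP/tdTomato and lowest in tdTomato, with log2 fold changes over tdTomato of 1.94 ± 0.26 for eGFP/tdTomato (adjusted p = 3.07e-05) and 1.08 ± 0.26 for eGFP (adjusted p = 0.00391). For eGFP/tdTomato over eGFP it was 0.86 ± 0.26 and was not called (adjusted p = 0.115). Alternatives that called it included DESeq2 (adjusted p = 0.0465) and the covariate for reads outside genes (0.0494).

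Rnf43 measured 2.83, 3.27, 1.92 and 3.11 CPM in the eGFP/tdTomato libraries, 7.41, 0.785, 2.41 and 3.02 CPM in the eGFP libraries and 9.13, 7.67, 8.14 and 5.02 CPM in the tdTomato libraries. The eGFP/tdTomato libraries lay below the tdTomato libraries (log2 fold change −1.43 ± 0.49, adjusted p = 0.0393), and eGFP replicate 1 was within the tdTomato range. The call was lost with upper-quartile factors (0.0558) and without eGFP/tdTomato replicate 1 (0.0779), eGFP/tdTomato replicate 2 (0.0642), eGFP/tdTomato replicate 5 (0.0712), tdTomato replicate 1 (0.0978), tdTomato replicate 2 (0.0724), or without tdTomato replicate 3 (0.0750), and without all libraries numbered 1 (0.0640) or 5 (0.0781), all given as adjusted p. For eGFP over tdTomato the log2 fold change was −1.14 ± 0.49 (adjusted p = 0.082, not called). Alternatives that called that comparison included DESeq2 (0.0432), limma-voom (0.0116) and the covariate for reads outside genes (0.00317). Leaving out eGFP replicate 1 (0.00132), all libraries numbered 1 (0.0171) or eGFP/tdTomato replicate 3 (0.0223) also brought the call.

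Beta-catenin and its destruction complex (4 genes) held 1 called member, Axin2. The beta-catenin gene Ctnnb1 measured 136, 141, 238 and 202 CPM in the eGFP/tdTomato libraries, 91.7, 159.6, 220.2 and 146 CPM in the eGFP libraries and 129, 138, 169.9 and 111 CPM in the tdTomato libraries. Apc, a scaffold of the complex, averaged 256 ± 38.9 CPM in the eGFP/tdTomato fraction, 215 ± 40.5 CPM in the eGFP fraction and 246 ± 55.1 CPM in the tdTomato fraction. Axin1, the constitutive axin, averaged 15.7 ± 1.00 CPM in the eGFP/tdTomato fraction, 19.6 ± 3.96 CPM in the eGFP fraction and 20.9 ± 6.73 CPM in the tdTomato fraction (SD, n = 4 each). The fractions overlapped for all 3, none was called in the fit of all libraries, and Ulk4 on the opposite strand covers 14.6% of the Ctnnb1 exons. With the share of reads outside genes as a covariate, Ctnnb1 was called against tdTomato in the eGFP/tdTomato fraction (adjusted p = 0.000804) and in the eGFP fraction (0.00359). Axin1 was called lower in eGFP/tdTomato than in tdTomato with the filter of 1 CPM in 4 libraries (0.0375) and when tdTomato replicate 5 was left out (0.0305).

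Axin2, the axin that the pathway itself induces, measured 8.05, 8.77, 19.2 and 14.8 CPM in the eGFP/tdTomato libraries, 6.02, 9.79, 8.66 and 10.3 CPM in the eGFP libraries and 4.90, 3.88, 3.79 and 2.58 CPM in the tdTomato libraries. The tdTomato libraries lay below all others, while the eGFP/tdTomato and eGFP libraries overlapped, with eGFP/tdTomato replicates 3 and 5 highest. Log2 fold changes were 1.74 ± 0.32 for eGFP/tdTomato over tdTomato (adjusted p = 0.000489), 1.20 ± 0.31 for eGFP over tdTomato (adjusted p = 0.00716) and 0.54 ± 0.31 for eGFP/tdTomato over eGFP (adjusted p = 0.686, not called). The call for eGFP over tdTomato was lost without eGFP replicate 5 (adjusted p = 0.0730) and without all libraries numbered 3 (0.0628) or 5 (0.0723).

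Among the TCF/LEF factors (4 genes), Tcf7l2 was the single call, and it was lower in both other fractions than in tdTomato. It encodes a factor known from differentiating oligodendrocytes as well as from the Wnt pathway, and it measured 162, 111, 129.8 and 135 CPM in the eGFP/tdTomato libraries, 127, 93.6, 88.0 and 73.8 CPM in the eGFP libraries and 1101, 1078, 874 and 728 CPM in the tdTomato libraries. The lowest tdTomato library was above 4 times the level of any other library, and the log2 fold changes were −2.81 ± 0.22 for eGFP/tdTomato and −3.31 ± 0.22 for eGFP (adjusted p = 7.32e-08 and 1.56e-08). Markers of differentiating oligodendrocytes, a list of 6 genes that includes Tcf7l2 itself, summed to 307 to 475 CPM in the eGFP/tdTomato libraries, 143 to 208 CPM in the eGFP libraries and 4781 to 7858 CPM in the tdTomato libraries. Their part in the Tcf7l2 difference was not tested.

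Tcf7l1, which acts mostly as a repressor, averaged 28.7 ± 3.77 CPM in the eGFP/tdTomato fraction, 27.9 ± 5.81 CPM in the eGFP fraction and 27.0 ± 8.76 CPM in the tdTomato fraction. Tcf7 averaged 2.91 ± 0.645 CPM in the eGFP/tdTomato fraction, 1.87 ± 0.409 CPM in the eGFP fraction and 1.48 ± 0.853 CPM in the tdTomato fraction. Lef1 averaged 2.13 ± 1.13 CPM in the eGFP/tdTomato fraction, 4.33 ± 4.57 CPM in the eGFP fraction and 1.03 ± 0.583 CPM in the tdTomato fraction (SD, n = 4 each), with eGFP replicate 1 at 10.6 CPM and eGFP replicate 3 at 0.0376 CPM. These 3 were not called in the edgeR fit of all libraries, and Lef1 exceeded the olfactory receptor yardstick in 1 of 12 libraries. Lef1 was called for eGFP over tdTomato without eGFP replicate 3 (adjusted p = 0.00872) and without all libraries numbered 3 (0.0127). Tcf7 was called for eGFP/tdTomato over tdTomato with limma-voom (adjusted p = 0.0385), without tdTomato replicate 1 (0.0291) and without all libraries numbered 1 (0.0363). Per kilobase, Tcf7l2 held 63.7% ± 4.70 of the summed TCF/LEF level in the eGFP/tdTomato libraries, 56.4% ± 4.81 in the eGFP libraries and 93.6% ± 1.07 in the tdTomato libraries. Tcf7l1 held 30.6% ± 4.22 in the eGFP/tdTomato libraries, 37.5% ± 7.36 in the eGFP libraries and 5.84% ± 1.12 in the tdTomato libraries.

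Of the secreted inhibitors (7 genes), 3 were higher than in tdTomato in the eGFP/tdTomato fraction, 4 were in the eGFP fraction, and none was lower. Dkk3, a dickkopf relative with the highest level per kilobase of these genes, measured 88.6, 128, 141 and 93.1 CPM in the eGFP/tdTomato libraries, 102, 184, 179.6 and 125 CPM in the eGFP libraries and 10.3, 9.18, 6.77 and 7.38 CPM in the tdTomato libraries. The eGFP/tdTomato and eGFP libraries overlapped, far above the tdTomato libraries, with log2 fold changes of 3.74 ± 0.26 and 4.14 ± 0.26 over tdTomato (adjusted p = 1.94e-08 and 8.16e-09). Wif1, a protein that binds Wnt ligands, measured 7.53, 6.82, 9.23 and 3.41 CPM in the eGFP/tdTomato libraries, 9.14, 6.05, 10.1 and 5.43 CPM in the eGFP libraries and 1.02, 1.47, 1.45 and 0.996 CPM in the tdTomato libraries. Its log2 fold changes over tdTomato were 2.44 ± 0.36 for eGFP/tdTomato and 2.63 ± 0.36 for eGFP (adjusted p = 6.39e-05 and 2.94e-05).

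Dkk1, which blocks the Lrp co-receptors, averaged 1.62 ± 0.413 CPM in the eGFP/tdTomato fraction, 1.77 ± 0.691 CPM in the eGFP fraction and 0.155 ± 0.209 CPM in the tdTomato fraction (SD, n = 4 each). It was called higher than in tdTomato in the eGFP/tdTomato fraction (3.37 ± 0.97, adjusted p = 0.0155) and in the eGFP fraction (3.49 ± 0.98, adjusted p = 0.0111), from 175 and 161 reads against 16 in the tdTomato libraries, 12 of them in replicate 5. Without that library the log2 fold changes were 4.80 and 4.91. The calls were lost without all libraries numbered 1 (adjusted p = 0.0594 for eGFP/tdTomato and 0.0620 for eGFP) and, for eGFP/tdTomato, without those numbered 2 (0.0638). Dkk1 exceeded the olfactory receptor yardstick in 5 of 12 libraries, none of them tdTomato. Sfrp2, a secreted Frizzled-related protein, measured 6.72, 7.496, 10.8 and 8.22 CPM in the eGFP/tdTomato libraries, 11.1, 20.7, 19.4 and 10.4 CPM in the eGFP libraries and 3.74, 8.24, 5.69 and 2.91 CPM in the tdTomato libraries. It was higher in eGFP than in tdTomato (log2 fold change 1.58 ± 0.34, adjusted p = 0.00172). Between the eGFP/tdTomato and tdTomato fractions it was not called in the edgeR fit of all libraries, and it was called under alternatives that include the covariate for reads outside genes (adjusted p = 0.0209) and leaving out tdTomato replicate 2 (0.0422).

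Sfrp1 averaged 12.2 ± 5.31 CPM in the eGFP/tdTomato fraction, 22.6 ± 15.6 CPM in the eGFP fraction and 10.7 ± 3.40 CPM in the tdTomato fraction. Its log2 fold change for eGFP over tdTomato was 1.07 ± 0.41 (adjusted p = 0.0552, not called). Alternatives that called it included DESeq2 (0.0415) and leaving out eGFP replicate 3 (0.0271) or tdTomato replicate 2 (0.0475). Sfrp5 averaged 0.259 ± 0.172 CPM in the eGFP/tdTomato fraction, 0.805 ± 0.559 CPM in the eGFP fraction and 0.396 ± 0.0935 CPM in the tdTomato fraction. Notum, an enzyme that removes the lipid from Wnt ligands, averaged 0.630 ± 0.307 CPM in the eGFP/tdTomato fraction, 0.558 ± 0.347 CPM in the eGFP fraction and 0.133 ± 0.158 CPM in the tdTomato fraction (SD, n = 4 each). Neither was called in any comparison, both were low, and the antisense gene Notumos covers 29.4% of the Notum exons.

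Apcdd1 and Nkd1 are inhibitors at the membrane and in the cytoplasm that the pathway can induce. Apcdd1 measured 6.61, 10.5, 18.2 and 15.4 CPM in the eGFP/tdTomato libraries, 4.18, 11.2, 10.3 and 5.96 CPM in the eGFP libraries and 0.668, 0.692, 0.669 and 1.25 CPM in the tdTomato libraries. The tdTomato libraries lay below all others, with log2 fold changes of 3.94 ± 0.43 for eGFP/tdTomato over tdTomato and 3.26 ± 0.42 for eGFP over tdTomato (adjusted p = 2.71e-06 and 1.47e-05). Nkd1, which binds Dishevelled, measured 41.4, 50.7, 82.0 and 62.7 CPM in the eGFP/tdTomato libraries, 27.8, 29.9, 81.4 and 36.4 CPM in the eGFP libraries and 44.8, 38.3, 79.3 and 55.9 CPM in the tdTomato libraries. It overlapped between all fractions and was not called in the edgeR fit of all libraries, with replicate 3 highest in each fraction. Without eGFP replicate 3 it was called lower in eGFP than in tdTomato (adjusted p = 0.0307), as it was without all libraries numbered 3 (0.0150).

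Of the members, 9 are known as transcriptional targets of the beta-catenin branch (Axin2, Nkd1, Notum, Apcdd1, Znrf3, Rnf43, Lgr5, Lef1 and Tcf7). Between the eGFP/tdTomato and eGFP fractions, 0 of them were called higher and 1 lower (Lgr5), with a median log2 fold change of 0.43, beside −0.02 over all genes. For eGFP/tdTomato over tdTomato 3 were higher (Axin2, Apcdd1 and Znrf3) and 1 lower (Rnf43), with a median of 1.05, beside 0.70. In eGFP over tdTomato 4 were higher (Axin2, Apcdd1, Znrf3 and Lgr5) and 0 lower, with a median of 1.20, beside 0.79. In these comparisons, in the same order, 0.814%, 16.8% and 20.4% of all genes were called higher. The shares of all genes called lower were 1.67%, 12.4% and 14.9%. The targets did not all move one way.

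A further list of 68 Wnt pathway genes outside the members held 66 that were tested. For eGFP/tdTomato over eGFP 1 was higher and 2 were lower, with a median log2 fold change of 0.00. Of all genes, 0.814% were called higher and 1.67% lower in that comparison. Ctnnbip1, an inhibitor that keeps beta-catenin from TCF factors, was higher (0.88 ± 0.19, adjusted p = 0.0188) and averaged 51.3 ± 6.49 CPM in the eGFP/tdTomato fraction, 27.9 ± 6.38 CPM in the eGFP fraction and 46.7 ± 4.51 CPM in the tdTomato fraction. Sostdc1, a secreted antagonist of BMP and Wnt ligands, was lower (−4.00 ± 0.43, adjusted p = 8.46e-05) and measured 1.60, 0.478, 0.565 and 1.04 CPM in the eGFP/tdTomato libraries, 11.9, 21.7, 11.67 and 14.3 CPM in the eGFP libraries and 0.668, 1.02, 0.669 and 0.443 CPM in the tdTomato libraries. Celsr1, a cadherin of planar polarity, was also lower (−1.64 ± 0.39, adjusted p = 0.039) and averaged 6.17 ± 1.42 CPM in the eGFP/tdTomato fraction, 19.3 ± 6.35 CPM in the eGFP fraction and 2.22 ± 1.60 CPM in the tdTomato fraction (SD, n = 4 each). The ependymal marker sums given above were also lower in the eGFP/tdTomato libraries than in the eGFP libraries, and their part in the Sostdc1 and Celsr1 differences was not tested.

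Against the tdTomato fraction, 21 of the 66 were higher and 7 lower in the eGFP/tdTomato fraction (median 0.63, beside 0.70 over all genes), and 26 were higher and 9 lower in the eGFP fraction (median 0.72, beside 0.79). Of all genes, 16.8% were called higher and 12.4% lower in the eGFP/tdTomato fraction, and 20.4% and 14.9% in the eGFP fraction. For eGFP/tdTomato over tdTomato, the 5 largest increases among genes of at least 5 CPM were those of Ror2, a receptor for Wnt5a (2.97 ± 0.31), Ndp, the gene of norrin (2.32 ± 0.25), Kremen1, a receptor for dickkopf proteins (2.24 ± 0.32), Amer1 (1.87 ± 0.21) and Bcl9l (1.80 ± 0.29). The 5 largest decreases were those of the polarity gene Prickle1 (−4.16 ± 0.27), the cyclin gene Ccnd1 (−2.42 ± 0.29), the secreted inhibitor gene Frzb (−1.83 ± 0.39), the formin gene Daam1 (−1.70 ± 0.18) and the tankyrase gene Tnks (−1.68 ± 0.17). For eGFP over tdTomato, the largest increases among genes of at least 5 CPM were those of Sostdc1 (4.39 ± 0.44), Wnt9a (4.31 ± 0.63), Celsr1 (3.11 ± 0.42), Sfrp4 (2.64 ± 0.39) and Ror2 (2.60 ± 0.30). The largest decreases there were those of Prickle1 (−4.47 ± 0.28), Ccnd1 (−2.87 ± 0.29), Daam1 (−1.97 ± 0.18), Tnks (−1.66 ± 0.17) and Pygo2 (−1.32 ± 0.46). Prickle1 averaged 10.3 ± 1.52 CPM in the eGFP/tdTomato fraction, 8.30 ± 2.91 CPM in the eGFP fraction and 184 ± 44.2 CPM in the tdTomato fraction (SD, n = 4 each), and like Tcf7l2 and Wnt3 it was highest in the tdTomato libraries. The largest adjusted p among these named genes was 0.00198 (Frzb) for eGFP/tdTomato over tdTomato and 0.0378 (Pygo2) for eGFP over tdTomato.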

How the data were processed

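Raw HTSeq gene counts were deposited by the authors for 12 libraries, from reads aligned with STAR to GRCm38 (mm10), per the submitters' processing notes. Tool versions, strand mode and annotation release are not given in the sources used here, so reads of antisense partners (11 members overlap another gene's exons) cannot be told apart. The 5 lines per file that name no gene were left out of library sizes. Symbols, exon lengths and positions came from GENCODE M21 (99.8% of identifiers matched).

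Counts were tested with edgeR 4.0.16 in R 4.3.3: TMM factors, filterByExpr by group, robust quasi-likelihood F-test, all 12 libraries in 1 fit with the fraction as the only factor, and Benjamini-Hochberg adjustment over 29361 genes. Standard errors were taken as the absolute log2 fold change divided by the square root of F. Fits were checked on simulated counts with 200 genes changed in the eGFP/tdTomato libraries. For eGFP/tdTomato over eGFP, 22.4% of 2-fold, 64.2% of 4-fold and 81.8% of 8-fold changes were recovered. For eGFP/tdTomato over tdTomato the shares were 23.9%, 70.1% and 84.8%, and each comparison had 4 false calls. Most 2-fold changes were thus missed in the simulation. It changed 200 of 26969 genes, a smaller share than was called in the data in either comparison. The adjustment over all genes was therefore stricter there, and the recovered shares do not give the sensitivity in the data. Alternatives were upper-quartile factors, DESeq2 1.42.0, limma-voom (limma 3.58.1), other filters, only the fractions compared, a replicate block, a covariate for reads outside genes, and leaving libraries out. The members and gene lists were chosen with earlier results of these data known. Values in every library are given for members called at a 2-fold or larger difference and with at least 5 CPM in the highest fraction, and for the member of each role with the highest level per kilobase. Other Wnt genes are named up to 5 per comparison and direction, by size of change among those called with at least 5 CPM.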

Additional observations from a re-analysis of the deposited data

Results flagged for a closer look

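Within a fraction of 4 libraries, 1 library stood far from the other 3 (a gap over range above Dixon's 95% critical value for 4 values) in 10 of 129 member and fraction groups (7.75%), where chance flags about 1 in 20. In the eGFP/tdTomato fraction, replicate 5 was high for Wnt4 (11.1 CPM, others 7.02 to 7.64 CPM) and low for Fzd3 (301.4 CPM, others 405 to 425 CPM), and replicate 1 was high for Lgr4 (130.4 CPM, others 74.5 to 81.8 CPM). In the eGFP fraction, replicate 3 was high for Nkd1 (81.4 CPM, others 27.8 to 36.4 CPM). In the tdTomato fraction, replicate 5 was low for Fzd3 (132 CPM, others 230.3 to 239.97 CPM) and high for Rspo2 (1.33 CPM, others 0 to 0.178 CPM) and Apcdd1 (1.25 CPM, others 0.668 to 0.692 CPM). Replicate 2 was high for Fzd1 (4.09 CPM, others 1.92 to 2.16 CPM) and low for Lgr6 (0.451 CPM, others 1.29 to 1.43 CPM), and replicate 1 was high for Tcf7 (2.76 CPM, others 1.02 to 1.11 CPM).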

How the results depend on the processing

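None of the 58 called member comparisons (of 129) changed sign under any of the 24 alternatives, and 29 of the 71 not called changed sign under at least 1, none of them called there. Members higher and lower for eGFP/tdTomato over eGFP (4 and 1) numbered 2 and 2 with only those fractions in the fit, and limma-voom called 2 lower. With 1 library or 1 replicate number left out, they ran from 0 to 5 higher and 0 to 1 lower. For eGFP/tdTomato over tdTomato (23 and 3) the same settings gave 22 to 25 higher and 2 to 4 lower, and for eGFP over tdTomato (25 and 2) 24 to 27 higher and 2 to 4 lower, the 4 without replicate 3. The cause was not tested. Same-numbered libraries of different fractions had deviations that correlated above 0.1 in 8 of 12 pairs (−0.217 to 0.643, median 0.222, against a median of −0.106 for different numbers), and 6 of 12 libraries correlated best with their own number. Libraries of 1 number may thus share something, but not in every pair, and the labels do not say what. The number was therefore used as a block only in an alternative. With the replicate block, members higher and lower were 6 and 1 for eGFP/tdTomato over eGFP, 24 and 3 for eGFP/tdTomato over tdTomato, and 26 and 3 for eGFP over tdTomato. The block called Wnt7b (adjusted p = 0.00517) and Znrf3 (0.00929) for eGFP/tdTomato over eGFP, Sfrp2 (0.0278) for eGFP/tdTomato over tdTomato, and Sfrp1 (0.00702) and Rnf43 (0.0319) for eGFP over tdTomato, which the fit without it did not call. The median of all genes for eGFP/tdTomato over tdTomato ran from 0.12 (at least 1 CPM in 4 libraries) to 0.97 (without tdTomato replicate 5), and for eGFP over tdTomato from 0.10 (covariate for reads outside genes) to 1.07. Depth limits the members with under 20 reads in the tdTomato libraries (Fzd10, Rspo1, Rspo3, Dkk1 and Notum), and with 4 libraries a fraction, a missed call does not show equal levels.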
